A study of Mus musculus with 2 samples.

Results

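Inflammatory activation genes were described across the myeloid cells of the adult mouse lung, namely Il1b, Il1a, Tnf, Cxcl2, Tnfsf9, Nfkbia, Nfkbiz, Dusp2, Gadd45b and Marcksl1. They are 10 of the 33696 genes in the deposited matrices and were chosen from measured values of these same libraries, so their levels are given as descriptions and no level is used as support for the choice. Single-cell RNA sequencing (10x Genomics 3′ chemistry) of whole-lung live cells comprised 1 library from a mouse labelled GFI1 KO and 1 library from a mouse labelled GFI1 WT. Both mice were C57BL6/J, the deletion was present in the germline and therefore in every cell of the animal, and the perfused lungs were digested enzymatically and sorted for live cells. With 1 library per genotype no test was possible, and every interval below is an exact 95% interval that covers counting error only and not the spread between animals. Intervals of levels and of ratios treat each UMI as independent, so they also leave out the spread between cells and are narrower for it.

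After filtering, 10495 cells with a median of 11076 UMIs (unique molecular identifiers, which count captured RNA molecules) remained under the label GFI1 KO, and 19342 cells with a median of 6217 UMIs under the label WT. The 2 libraries shared 74 cell barcodes. The RNA of the targeted gene did not separate the labels. Gfi1 stood at 3.60 CPM (3.23 to 4.004; 340 UMIs) under the label GFI1 KO and 3.47 CPM (3.16 to 3.80; 470 UMIs) under the label WT, where CPM are UMIs scaled to a total of 1000000 gene UMIs of the cells concerned. Where the counted 3′ end lies relative to the deletion is not given in the sources used here, so this level checks nothing about the genotype, and the libraries are called by their labels throughout.

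Interleukin-1β (Il1b, ENSMUSG00000027398), interleukin-1α (Il1a, ENSMUSG00000027399) and tumour necrosis factor (Tnf, ENSMUSG00000024401) are cytokines that myeloid cells make when pattern recognition or cytokine receptors activate the transcription factor NF-κB. CXCL2 (Cxcl2, ENSMUSG00000058427) is a chemokine that attracts neutrophils, and 4-1BB ligand (Tnfsf9, ENSMUSG00000035678) is a costimulatory ligand of the TNF family. Nfkbia (ENSMUSG00000021025) encodes IκBα, the inhibitor that retains NF-κB in the cytoplasm and is itself induced by NF-κB as negative feedback, and Nfkbiz (ENSMUSG00000035356) encodes the nuclear regulator IκBζ. Dusp2 (ENSMUSG00000027368) encodes a phosphatase that inactivates MAP kinases, Gadd45b (ENSMUSG00000015312) a stress-response protein induced by NF-κB, and Marcksl1 (ENSMUSG00000047945) an actin-associated protein of the MARCKS family. In the lung, alveolar macrophages live in the airspaces, interstitial macrophages and dendritic cells in the tissue, and classical and nonclassical monocytes and neutrophils largely in vessels or newly arrived from them.

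NF-κB binds DNA words of the form GGG, any 2 bases and TTTCC, and the promoters of the members were therefore read from RefSeq (build GRCm38.p6, whereas the deposited counts were made on GRCm39, so only the sequences are used). Windows from 250 bases before to 50 bases after the start were found for 8 of the 10 members, with none for Tnfsf9 and Nfkbiz. This word, searched on both strands, was present in 2 of these 8 windows and in 535 of all 32851 windows (1.63%). The 250 bases before the start are shown for Cxcl2 and Nfkbia, which hold the word, and for Il1b, which does not, at chr5:90903649-90903898 (plus strand), chr12:55492648-55492897 (minus strand) and chr2:129371140-129371389 (minus strand). Each is written 5′ to 3′ on the strand of its gene, with the matched words in capitals.
Cxcl2: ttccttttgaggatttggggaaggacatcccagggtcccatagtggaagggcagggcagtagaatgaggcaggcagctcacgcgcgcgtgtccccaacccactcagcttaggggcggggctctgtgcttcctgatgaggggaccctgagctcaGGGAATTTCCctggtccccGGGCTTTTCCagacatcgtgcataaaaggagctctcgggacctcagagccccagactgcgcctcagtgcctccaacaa
Nfkbia: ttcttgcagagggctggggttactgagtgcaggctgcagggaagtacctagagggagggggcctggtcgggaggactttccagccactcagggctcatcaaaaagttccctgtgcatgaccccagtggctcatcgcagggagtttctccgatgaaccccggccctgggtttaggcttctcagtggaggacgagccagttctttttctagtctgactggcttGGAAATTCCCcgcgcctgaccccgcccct
Il1b: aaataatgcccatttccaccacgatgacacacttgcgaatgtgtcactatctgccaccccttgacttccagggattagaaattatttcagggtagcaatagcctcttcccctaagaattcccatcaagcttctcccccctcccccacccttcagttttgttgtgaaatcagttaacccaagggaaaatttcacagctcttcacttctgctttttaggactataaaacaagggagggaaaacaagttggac
In Cxcl2 the words GGGAATTTCC, from 97 to 88 bases before the start, and GGGCTTTTCC, from 78 to 69 bases before it, stand close together. In Nfkbia the word GGAAATTCCC, from 29 to 20 bases before the start, matches on the opposite strand. A match describes letters and no binding was measured, and the absence of the word from the Il1b, Il1a, Tnf, Dusp2, Gadd45b and Marcksl1 windows says nothing about NF-κB at these genes.

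The members were withheld from the genes used for clustering, and the myeloid clusters were named from marker lists. The library labelled WT held 1426 neutrophils, which under the label GFI1 KO numbered only 9. In their place the library labelled GFI1 KO held 916 cells of a cluster led by granule genes such as Elane, Fcnb, Prtn3 and Lcn2, which had no cell under the label WT and which was left unnamed because its leading genes went against the monocyte markers that were also raised in it. Classical monocytes numbered 3408 under the label GFI1 KO and 268 under the label WT. Those labelled GFI1 KO lay mostly in cluster 1 (1822 cells, led by Ms4a4c and F13a1) and cluster 2 (1509 cells, led by Saa3 and Plac8), whereas those labelled WT lay mostly in cluster 1 (216 cells). A cluster led by Spon1, Aif1, Slamf8, the heat-shock gene Hspa1a, Adgre4 and H2-Ab1, in which 6 of 7 nonclassical and 3 of 7 classical monocyte markers and all 5 MHC class II genes of the list were raised, called MHC-II-high monocytes below, held 482 and 180 cells, and nonclassical monocytes numbered 401 and 371. Alveolar macrophages numbered 2355 and 3711, interstitial macrophages 23 and 397, conventional dendritic cells 82 and 471, migratory dendritic cells 10 and 104 and plasmacytoid dendritic cells 13 and 132. The class called interstitial macrophages may pool kinds of macrophage, since 5 alveolar macrophage markers (Chil3, Car4, Ctsk, Plet1 and Krt79) were raised in it beside 6 interstitial ones. At a finer clustering (Leiden resolution 1.2) only 154 cells labelled WT were named interstitial macrophages, and a cluster of 283 cells labelled WT, led by Fbp1 and Rnase2a as this class is, was named alveolar macrophages.

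Il1b UMIs were found in every myeloid class, and the members as a list were not particular to monocytes. In the library labelled WT its level was 17182 CPM (17057 to 17307) in neutrophils, 3119 CPM in MHC-II-high monocytes, 2971 CPM in classical monocytes, 2049 CPM in nonclassical monocytes, 1686 CPM in conventional dendritic cells, 1602 CPM in interstitial macrophages, 650.4 CPM in migratory dendritic cells, 320.1 CPM in alveolar macrophages and 202.6 CPM in plasmacytoid dendritic cells. The neutrophils therefore stood far above all other classes of that library. In the library labelled GFI1 KO, among the classes with at least 20 cells, MHC-II-high monocytes had 4102 CPM (4040 to 4164), classical monocytes 3780 CPM (3759 to 3801), nonclassical monocytes 3111 CPM, the 23 interstitial macrophages 2138 CPM (1949 to 2340), the granule-gene cluster 1900 CPM (1874 to 1927) and conventional dendritic cells 1678 CPM. The 9 cells named neutrophils there, whose granule gene list summed to 10713 CPM against 87.4 CPM in those labelled WT, had 3093 CPM (2777 to 3435), and their interval overlapped that of the nonclassical monocytes. Alveolar macrophages were again low with 374.4 CPM. B cells and endothelial cells, taken as the background, gave 41.8 and 28.0 CPM under the label GFI1 KO and 130.9 and 82.8 CPM under the label WT. The alveolar macrophage levels stood above these, by less than the monocyte levels did. The plasmacytoid dendritic cells labelled WT, at 202.6 CPM, lay nearer still to this background, and 13.6% of them were called doublets. A small group of basophils or mast cells (19 and 15 cells) had 6032 and 4900 CPM, which under the label GFI1 KO was above every class just given.

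**Figure D1:**
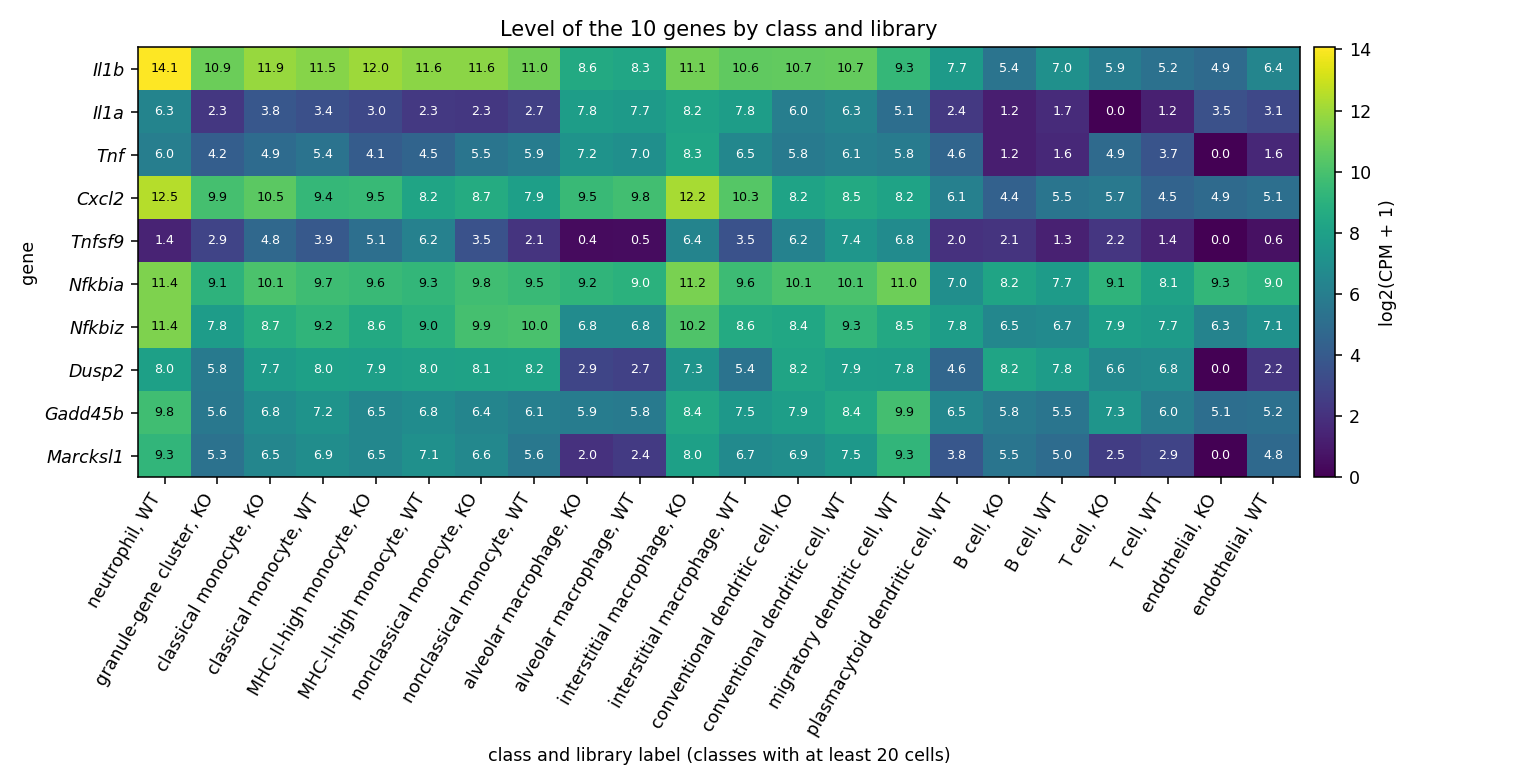
Level of each member as log2(CPM + 1), given by colour and as the number in each square, with genes in rows and, in columns, the classes with at least 20 cells in the libraries labelled GFI1 KO and WT, including B, T and endothelial cells as background. Il1b and Cxcl2 stood highest in the neutrophils labelled WT (17182 and 5799 CPM), whereas Il1a and Tnf were low in monocytes and high in alveolar macrophages (226.0 and 150.8 CPM under the label GFI1 KO).

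Cxcl2 followed another order. In the library labelled WT it was 5799 CPM (5726 to 5872) in neutrophils, 1298 CPM in interstitial macrophages, 891.4 CPM in alveolar macrophages, 661.1 CPM in classical monocytes, 366.8 CPM in conventional dendritic cells, 290.8 CPM in MHC-II-high monocytes and 242.6 CPM in nonclassical monocytes. Macrophages of both kinds thus exceeded all monocyte classes of that library. In the library labelled GFI1 KO classical monocytes had 1485 CPM (1472 to 1498), the granule-gene cluster 973.7 CPM, alveolar macrophages 741.6 CPM, MHC-II-high monocytes 723.3 CPM, nonclassical monocytes 403.8 CPM and conventional dendritic cells 289.1 CPM. Classical monocytes therefore stood above alveolar macrophages there, in the opposite order to the library labelled WT. The highest value, 4785 CPM, came from only 23 interstitial macrophages. The intervals of alveolar macrophages and MHC-II-high monocytes (731.3 to 752.0 and 697.7 to 749.5) overlapped.

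Il1a and Tnf, the other cytokines, were highest in macrophages among the classes with at least 20 cells, and were also found in dendritic cells. Il1a was 226.0 CPM (220.4 to 231.8) in alveolar macrophages under the label GFI1 KO and 201.5 CPM (197.4 to 205.7) under the label WT, and 227.6 CPM in interstitial macrophages labelled WT. In the 3 monocyte classes it lay between 3.82 and 12.9 CPM in both libraries, and B cells had 1.31 and 2.26 CPM. Neutrophils labelled WT had 79.9 CPM of Il1a, more than any monocyte class. Conventional dendritic cells had 62.8 and 79.7 CPM of Il1a and 55.5 and 65.9 CPM of Tnf. Tnf was 150.8 and 129.4 CPM in alveolar macrophages, 89.4 CPM in interstitial macrophages labelled WT and 64.7 CPM in neutrophils labelled WT. Monocyte levels of Tnf ranged from 16.1 CPM in MHC-II-high cells labelled GFI1 KO to 60.05 CPM in nonclassical cells labelled WT. The classes with the highest Il1b among these were therefore not those with the highest Tnf or Il1a.

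Tnfsf9 was highest in conventional dendritic cells under the label WT. It reached 168.5 CPM (158.3 to 179.1) in conventional and 108.5 CPM in migratory dendritic cells labelled WT, and within the conventional cells it was 362 CPM in cluster 13, led by Cd209a, against 58.6 CPM in cluster 11, led by Xcr1. MHC-II-high monocytes had 34.3 CPM under the label GFI1 KO and 70.4 CPM under the label WT, and classical monocytes 26.0 and 14.4 CPM, whereas nonclassical monocytes had 10.6 and 3.42 CPM and plasmacytoid dendritic cells labelled WT 3.09 CPM. Conventional dendritic cells labelled GFI1 KO had 73.3 CPM, and interstitial macrophages 81.7 CPM (48.4 to 129.1; 23 cells) and 10.5 CPM. Alveolar macrophages had 0.337 and 0.378 CPM (9 and 17 UMIs) and neutrophils labelled WT 1.66 CPM (7 UMIs), which is no more than the 3.27 and 1.40 CPM of B cells in either library by the counting intervals.

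The feedback genes were broad. Nfkbia was 2611 CPM (2562 to 2660) in neutrophils and 2034 CPM in migratory dendritic cells labelled WT, 1069 and 820.2 CPM in classical monocytes, 863.2 and 733.3 CPM in nonclassical monocytes and 596.5 and 508.9 CPM in alveolar macrophages. It was also found in endothelial cells at 631.2 and 500.02 CPM, which is of the same order. Nfkbiz was 2613 CPM in neutrophils labelled WT and, among monocytes, was highest in nonclassical cells with 958.2 CPM (919.1 to 998.6) and 1033 CPM (989.5 to 1078), whose intervals overlapped between the libraries. Classical monocytes had 428.5 and 578.9 CPM of Nfkbiz and alveolar macrophages 108.3 and 108.9 CPM.

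Dusp2 was low in alveolar macrophages. It was 277.0 and 283.6 CPM in nonclassical, 240.4 and 261.3 CPM in MHC-II-high and 206.8 and 257.7 CPM in classical monocytes, against 6.59 and 5.67 CPM in alveolar macrophages. Interstitial macrophages lay between, with 154.3 CPM (106.9 to 215.7; 23 cells) and 39.99 CPM. B cells had 300.1 and 216 CPM, so the gene was not restricted to myeloid cells. Marcksl1 was also low in alveolar macrophages, with 87.6 and 117.0 CPM in classical monocytes, 612.3 CPM in neutrophils and 619.4 CPM in migratory dendritic cells labelled WT, and 3.03 and 4.23 CPM in alveolar macrophages. Interstitial macrophages had 254.2 and 103.4 CPM of Marcksl1 and nonclassical monocytes 94.2 and 48.8 CPM, so this contrast was not one of monocytes with all macrophages. Gadd45b was highest in migratory dendritic cells (924.4 CPM) and neutrophils (862.1 CPM) labelled WT, and lay between 55.5 and 147.8 CPM in the monocyte classes and alveolar macrophages of both libraries.

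Members also varied within the named classes. Alveolar macrophages of cluster 0 (1767 cells labelled GFI1 KO and 2837 labelled WT) had 900.5 and 1047 CPM of Cxcl2, 265.8 and 237.1 CPM of Il1a and 175.4 and 151.1 CPM of Tnf. Those of cluster 4 (426 and 621 cells) had 76.7 and 78.6 CPM of Cxcl2, 40.1 and 25.1 CPM of Il1a and 29.6 and 17.6 CPM of Tnf. Both libraries thus held alveolar macrophages of a high and a low level, in the same clusters. Among classical monocytes labelled GFI1 KO, cluster 1 had 1736 CPM of Cxcl2 and 39.4 CPM of Tnfsf9, and cluster 2 had 1219 and 12.2 CPM. In cluster 2 the library labelled WT had only 7 cells.

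The main sources of the Il1b, Cxcl2 and Tnfsf9 UMIs differed between the 2 libraries. The classes differed between the libraries in number of cells, and some also in depth and in level, and the part of each was not tested. Under the GFI1 KO label classical monocytes gave 64.1% of all Il1b UMIs of the library, the granule-gene cluster 10.3%, MHC-II-high monocytes 8.96% and neutrophils 0.183%. Under the WT label neutrophils gave 48.2%, alveolar macrophages 9.57%, conventional dendritic cells 6.81% and classical monocytes 3.85%. Cxcl2 UMIs came to 53.7% from classical monocytes and 22.1% from alveolar macrophages under the label GFI1 KO, and to 43.4% from alveolar macrophages and 26.5% from neutrophils under the label WT. Il1a and Tnf kept the same main source, since alveolar macrophages gave 83.9% and 70.04% of the Il1a UMIs and 67.0% and 63.7% of the Tnf UMIs. Tnfsf9 UMIs came to 65.2% from classical monocytes under the label GFI1 KO and to 62.5% from conventional dendritic cells under the label WT. Over all cells, Il1b was 2023 CPM under the label GFI1 KO and 1110 CPM under the label WT, Cxcl2 949 and 681 CPM, Il1a 76.2 and 95.4 CPM and Tnf 63.7 and 67.4 CPM.

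**Figure D2:**
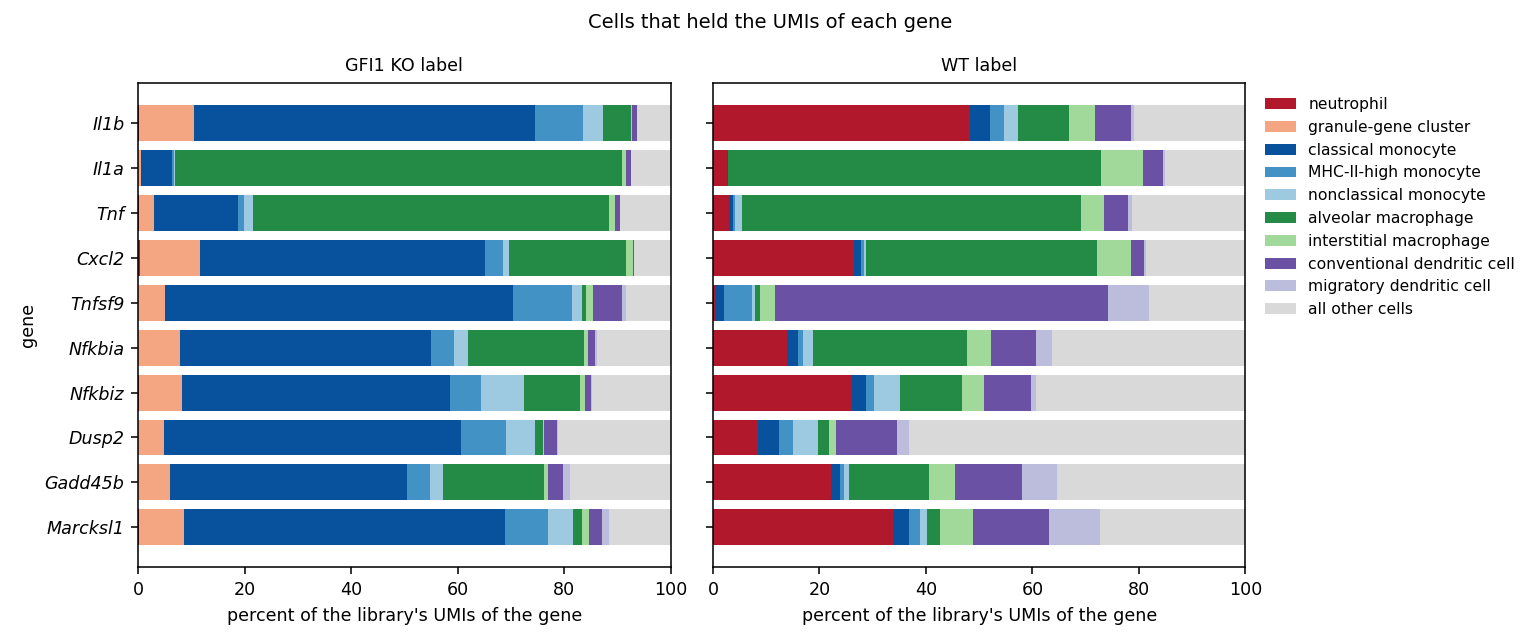
Share of each member's UMIs (percent of all UMIs of the gene in the library) that came from each cell class, in the libraries labelled GFI1 KO and WT. Classical monocytes gave 64.1% of the Il1b UMIs under the label GFI1 KO and neutrophils 48.2% under the label WT, whereas alveolar macrophages gave most Il1a and Tnf UMIs under both labels.

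Within a class, the library labelled GFI1 KO was set against the library labelled WT as a ratio of CPM. In classical monocytes Cxcl2 was 2.25 times higher (2.13 to 2.38) under the label GFI1 KO, Tnfsf9 1.81 times (1.24 to 2.74), Nfkbia 1.30 times (1.24 to 1.37) and Il1b 1.27 times (1.24 to 1.31). In the same cells the ratio was 0.73 for Tnf (0.58 to 0.93), 0.74 for Nfkbiz (0.70 to 0.79), 0.75 for Marcksl1 (0.65 to 0.86), 0.77 for Gadd45b (0.69 to 0.87) and 0.80 for Dusp2 (0.73 to 0.88). The list thus did not move together, and the interval of Il1a (0.83 to 2.22) included 1. The summed members had a ratio of 1.29. By a rule of at least 2-fold among genes with at least 30 UMIs, 1 of 10 members was higher, beside 8.03% of the 11054 genes measured, and 0 of 10 were lower, beside 4.89%. The median log2 ratio was 0.05 over the members and 0.06 over all these genes. Since the members were chosen on these libraries, nothing is read from these counts, here or in the other classes. With each library clustered on its own Il1b was 0.89, while Cxcl2 stayed at 2.01 or more under every alternative run. Cluster 15, led by interferon-induced genes such as Ifit2, held 77 of the 3408 cells labelled GFI1 KO and 45 of the 268 labelled WT. Its summed members were 7860 and 3714 CPM, beside 8058 and 5979 CPM in cluster 1. The part of this unequal mix in the ratios of the class was not tested. In cluster 15 the ratios of all 10 members were above 1, and the summed members had a ratio of 2.12. By the 2-fold rule 2 of the 8 members measured were higher, beside 4.96% of 5144 genes. The intervals of Il1a, Tnf, Tnfsf9, Gadd45b and Marcksl1 in this cluster included 1. Nfkbiz (1.88, 1.502 to 2.374) and Dusp2 (1.54, 1.15 to 2.07) thus lay on the other side of 1 there than in the class as a whole. So did Tnf (1.65, 0.73 to 4.20), Gadd45b (1.24, 0.87 to 1.81) and Marcksl1 (1.27, 0.83 to 1.98), whose intervals included 1.

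MHC-II-high monocytes showed ratios close to these for most members. Cxcl2 was 2.49 times higher (2.23 to 2.78) under the label GFI1 KO, Il1b 1.31 times (1.27 to 1.36) and Nfkbia 1.19 times (1.10 to 1.28), and the ratio was 0.74 for Nfkbiz and 0.68 for Marcksl1. Tnfsf9 went the other way from classical monocytes, with a ratio of 0.49 (0.37 to 0.64). At least 2-fold, 1 of 10 members was higher and 1 of 10 lower, each beside 3.86% of 8686 genes. The median log2 ratio was -0.23 over the members and -0.00 over all genes. No alternative clustering gave this class in both libraries, so its ratios rest on the clusters of the main run.

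In nonclassical monocytes Il1b was 1.52 times (1.46 to 1.58) and Cxcl2 1.66 times (1.49 to 1.86) higher under the label GFI1 KO. Marcksl1 was 1.93 times higher (1.52 to 2.47). Tnfsf9 had a ratio of 3.10, but from 25 and 7 UMIs (1.31 to 8.497). Tnf had a ratio of 0.72 (0.55 to 0.94). At least 2-fold, 1 of 9 members measured was higher, beside 1.84% of 8390 genes, and 0 of 9 were lower, beside 1.64%. The median log2 ratio was 0.34 over the 9 members and 0.01 over all genes. The edge of this class moved with the clustering, and over the alternatives Cxcl2 lay between 0.47 and 8.30 Il1b between 0.83 and 2.41 and Marcksl1 between 0.83 and 3.42, so none of these directions held under all of them.

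In alveolar macrophages the 9 members measured had ratios from 0.72 to 1.17. Cxcl2 was lower under the label GFI1 KO (0.83, 0.82 to 0.85), and Tnf (1.16, 1.12 to 1.21), Il1b (1.17), Nfkbia (1.17) and Il1a (1.12) were higher, although Il1b was above 1 in only 5 of 8 alternatives. None of the 9 passed the 2-fold rule in either direction, beside 0.444% of 12375 genes higher and 3.77% lower. In conventional dendritic cells Tnfsf9 (0.44, 0.34 to 0.56) and Nfkbiz (0.54, 0.48 to 0.61) were lower and the interval of Il1b included 1 (0.995, 0.94 to 1.05). Marcksl1 (0.67, 0.55 to 0.81), Gadd45b (0.70, 0.61 to 0.80) and Cxcl2 (0.79, 0.69 to 0.89) were lower too, whereas Dusp2 was higher (1.24, 1.09 to 1.41). There, 0 of 10 members were at least 2-fold higher, beside 1.84% of 10487 genes, and 1 of 10 was lower, beside 6.58%. The dendritic cells labelled GFI1 KO were mostly of cluster 11 (63 of 82), whereas 195 of the 471 labelled WT were of the Tnfsf9-rich cluster 13. In cluster 11 alone Tnfsf9 was 46.1 and 58.6 CPM, the ratio of Il1b was 1.26 (1.17 to 1.35) and that of Nfkbiz 0.72 (0.61 to 0.84). Tnf (0.37, 0.22 to 0.58; 19 and 280 UMIs) and Il1a (0.49, 0.32 to 0.73; 28 and 308 UMIs) were lower there, whereas in the whole class their intervals included 1. In this cluster 2 of 10 members were at least 2-fold lower, beside 7.99% of 9814 genes, and 0 of 10 higher, beside 1.46%.

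**Figure D3:**
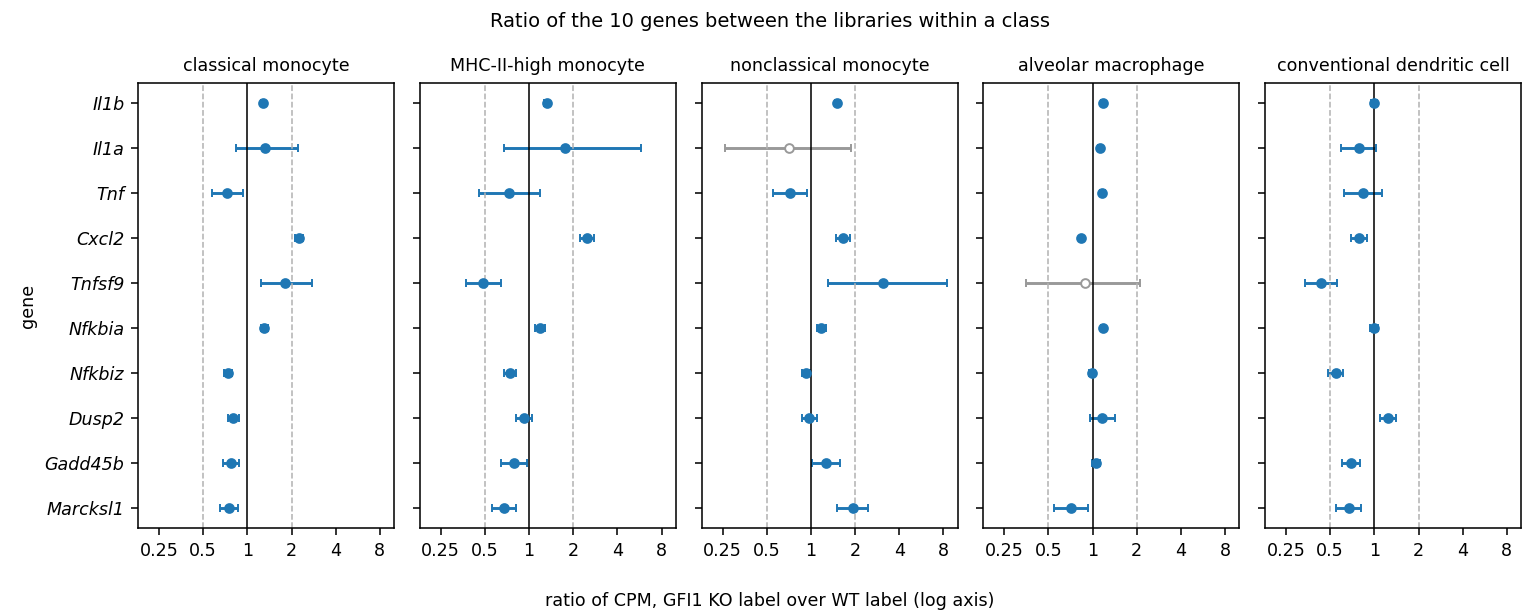
Ratio of CPM under the label GFI1 KO to CPM under the label WT for each member and class (log axis), with exact 95% intervals for counting error, dashed lines at 2-fold and grey open points for genes with under 30 UMIs. Cxcl2 lay between 1.66 and 2.49 in the 3 monocyte classes and at 0.83 in alveolar macrophages, and Tnf lay between 0.72 and 0.73 in the monocyte classes and at 1.16 in alveolar macrophages. In MHC-II-high monocytes the Tnf ratio rests on 67 and 27 UMIs, its interval (0.46 to 1.18) included 1, and it was above 1 in 1 of 3 alternatives. No alternative clustering gave MHC-II-high monocytes in both libraries.

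The classical monocytes of the 2 libraries also differed in other genes. The neutrophil marker list summed to 1209 CPM under the label GFI1 KO and 712.9 CPM under the label WT, the granule gene list to 191.7 and 27.2 CPM, the MHC class II list to 936.6 and 2723 CPM, and Chil3, an alveolar macrophage marker, was 4105 and 1410 CPM. The B cell list (9.7 and 11.8 CPM) and the T cell list (2.4 and 4.1 CPM) were near 0. Ly6g, a defining neutrophil gene, had 2 UMIs in these cells under the label GFI1 KO and 0 under the label WT, where 3 UMIs would be 1.54 CPM. The part of these other genes and of the difference in depth (medians of 9214.5 and 7134 UMIs over the genes used) in the ratios was not tested. Leaving out clusters 2 and 15, a restriction chosen after the data were seen, Cxcl2 in cluster 1 had a ratio of 2.42 (2.28 to 2.58), Il1b 1.27 and Tnfsf9 2.52. There Tnf (0.82, 0.63 to 1.08), Gadd45b (0.96) and Marcksl1 (0.90) had intervals that included 1.

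The share of cells with a Cxcl2 UMI was compared at 1 depth. Cells were thinned to 1500 UMIs, and those with fewer were left out here and in all thinned counts below. A Cxcl2 UMI was then found in 50.8% (49.1 to 52.5) of classical monocytes labelled GFI1 KO and 26.1% (21.0 to 31.8) of those labelled WT. In MHC-II-high monocytes the shares were 34.1% (29.9 to 38.5) and 9.497% (5.63 to 14.8), in nonclassical monocytes 19.0% (15.3 to 23.3) and 10.2% (7.26 to 13.7), and in alveolar macrophages 31.2% and 36.2%. Without thinning, the shares in classical monocytes were 73.2% and 45.9%. B cells, thinned likewise, had 2.30% and 2.15% (median depths of 2967 and 3355.5 UMIs), and endothelial cells labelled WT 2.501%, so the monocyte shares stood above this background in both libraries. Classical monocytes with a Cxcl2 UMI held on average 19.3 Cxcl2 UMIs under the label GFI1 KO and 10.5 under the label WT, counted without thinning in cells whose median depths were 9214.5 and 7134 UMIs.

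Thinned shares of cells with an Il1b UMI were 83.3% (82.0 to 84.5) and 75.7% (70.2 to 80.8) in classical monocytes, 87.7% and 84.4% in MHC-II-high monocytes and 79.2% and 72.8% in nonclassical monocytes, with intervals that overlapped in the last 2 classes. Classical monocytes with an Il1b UMI held on average 38.1 and 24.4 Il1b UMIs, again without thinning and at those unequal depths. Neutrophils labelled WT had an Il1b UMI in 99.8% of thinned cells, although their median depth was only 2811 UMIs. Of these 1426 neutrophils, 107 were too shallow to be thinned and were left out. B cells had 5.36% and 4.59%, and alveolar macrophages 26.0% and 25.3%.

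Co-detection was read in the thinned cells as the number of cells with both genes over the number given by the product of the single-gene shares. In alveolar macrophages 24 pairs under the label GFI1 KO and 28 under the label WT had enough cells for a ratio, and all of them exceeded 1, with medians of 1.66 and 1.56. In classical monocytes the 42 and 26 pairs also all exceeded 1, with medians of 1.45 and 1.51. Neutrophils labelled WT had a median of 1.10 over 36 pairs. Within cluster 0 of the alveolar macrophages alone the medians were 1.49 and 1.40, and within cluster 1 of the monocytes 1.44 and 1.49.

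**Figure D4:**
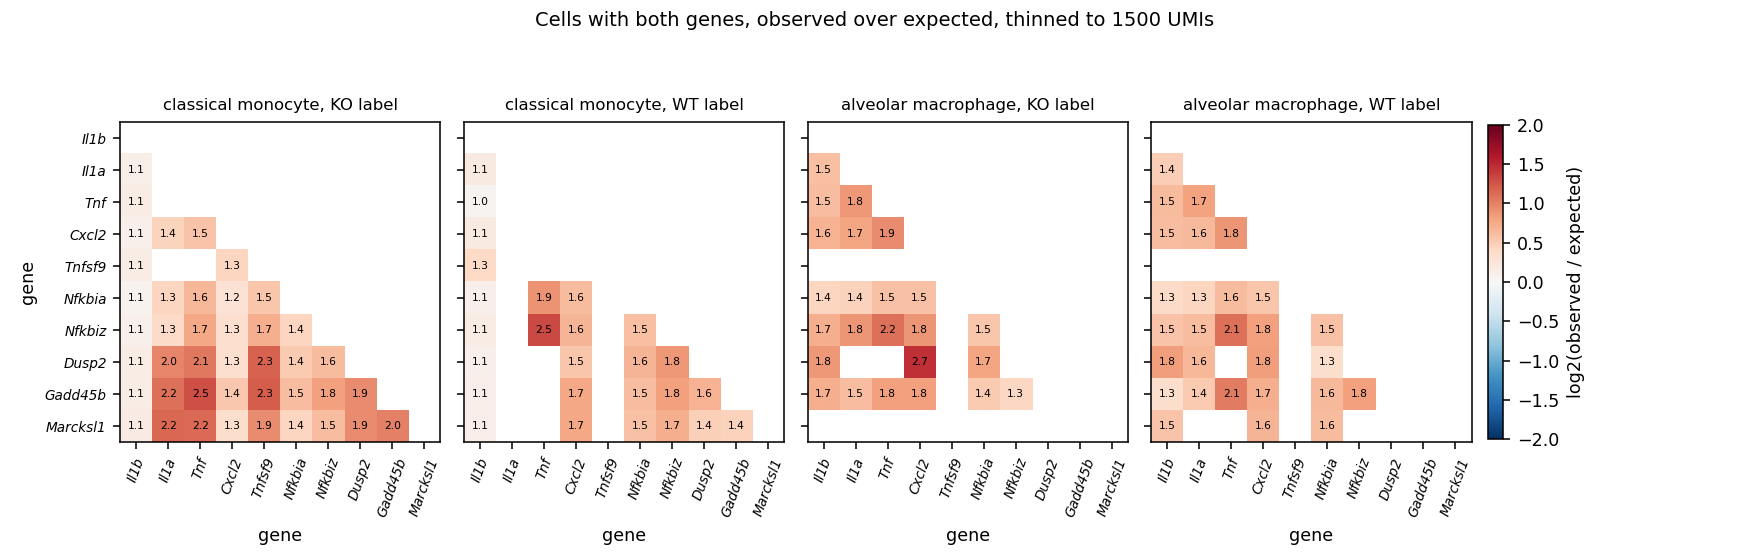
Cells with both members of a pair over the number given by the product of their shares, in classical monocytes and alveolar macrophages of each library, thinned to 1500 UMIs. The number in each square is the ratio, the colour its log2, and blank squares in the lower triangle had too few cells. All ratios shown exceeded 1, with medians of 1.45 and 1.51 in the monocytes and 1.66 and 1.56 in the macrophages.

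In classical monocytes labelled GFI1 KO, Cxcl2 was found in 54.4% of the 2835 cells with Il1b and in 32.8% of those without it, and under the label WT in 29.6% of 203 cells with Il1b and 15.4% of those without. Nfkbia was found in 68.7% of the 1729 classical monocytes with Cxcl2 and 42.8% of those without it under the label GFI1 KO, and in 71.4% of 70 cells and 36.9% under the label WT. The higher Cxcl2 share under the label GFI1 KO was therefore present both in cells with and in cells without an Il1b UMI. In MHC-II-high monocytes labelled GFI1 KO, Nfkbia was found in 48.5% of cells with Cxcl2 and 44.4% of those without, a far smaller gap.

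In alveolar macrophages, Tnf was found with other members more often than the shares gave, which held for every pair measured in these cells. Cxcl2 was found in 59.9% of 324 cells with Tnf and 26.6% of those without it under the label GFI1 KO, and in 66.5% of 489 cells and 31.6% under the label WT. Tnf and Nfkbiz were found together 2.15 and 2.14 times as often as the product of their shares, and Il1a and Tnf 1.83 and 1.75 times. The co-detection of these pairs was thus close between the libraries.

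In the interstitial macrophages labelled WT, the class that may pool kinds of macrophage, some members were rarely found in the same cells. Marcksl1 and Il1a were found together in 1 of 387 cells, where the shares gave 10.5, and Marcksl1 and Il1b in 13 cells, where they gave 31.8. Marcksl1 and Nfkbiz, in contrast, were found together in 43 cells, where the shares gave 14.7. In the Cd209a cluster of dendritic cells labelled WT, Nfkbiz was found in 81.2% of 133 cells with Il1b and 25.4% of those without it.

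Cells with at least 4 of the 10 members were counted in each class, a range of a count and not a cell type. They made up 70.7% (68.1 to 73.1) of neutrophils labelled WT, 31.1% (29.6 to 32.7) and 26.9% (21.7 to 32.6) of classical monocytes, 24.5% and 22.3% of MHC-II-high monocytes, 23.6% and 22.8% of nonclassical monocytes and 13.04% (11.7 to 14.5) and 12.3% (11.3 to 13.4) of alveolar macrophages. Intervals of the 2 libraries overlapped in each of these monocyte and macrophage classes. The granule-gene cluster had 12.3%, conventional dendritic cells 28.4% and 41.7%, with 60.4% in the Cd209a cluster labelled WT, and plasmacytoid dendritic cells labelled WT 1.57%. The product of the shares gave 4.39% and 4.34% for alveolar macrophages, 25.3% and 18.2% for classical monocytes and 84.7% for neutrophils labelled WT. Neutrophils thus had fewer such cells than the product gave, although 33 of their 36 pairs exceeded 1. Their mean was 4.62 members per cell, and a share past 4 cannot show co-detection where the mean is near or above 4. With cells thinned to 3000 UMIs the observed share over this product was 0.938 and 0.906 in classical monocytes, below 1, and 1.58 and 1.63 in alveolar macrophages. At that depth the classical monocytes had means of 3.54 and 3.17 members, and all 44 and 30 of their pairs measured exceeded 1. Alveolar macrophages with at least 4 members were 16.5% and 15.1% of cluster 0 and 1.196% and 1.65% of cluster 4.

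**Figure D5:**
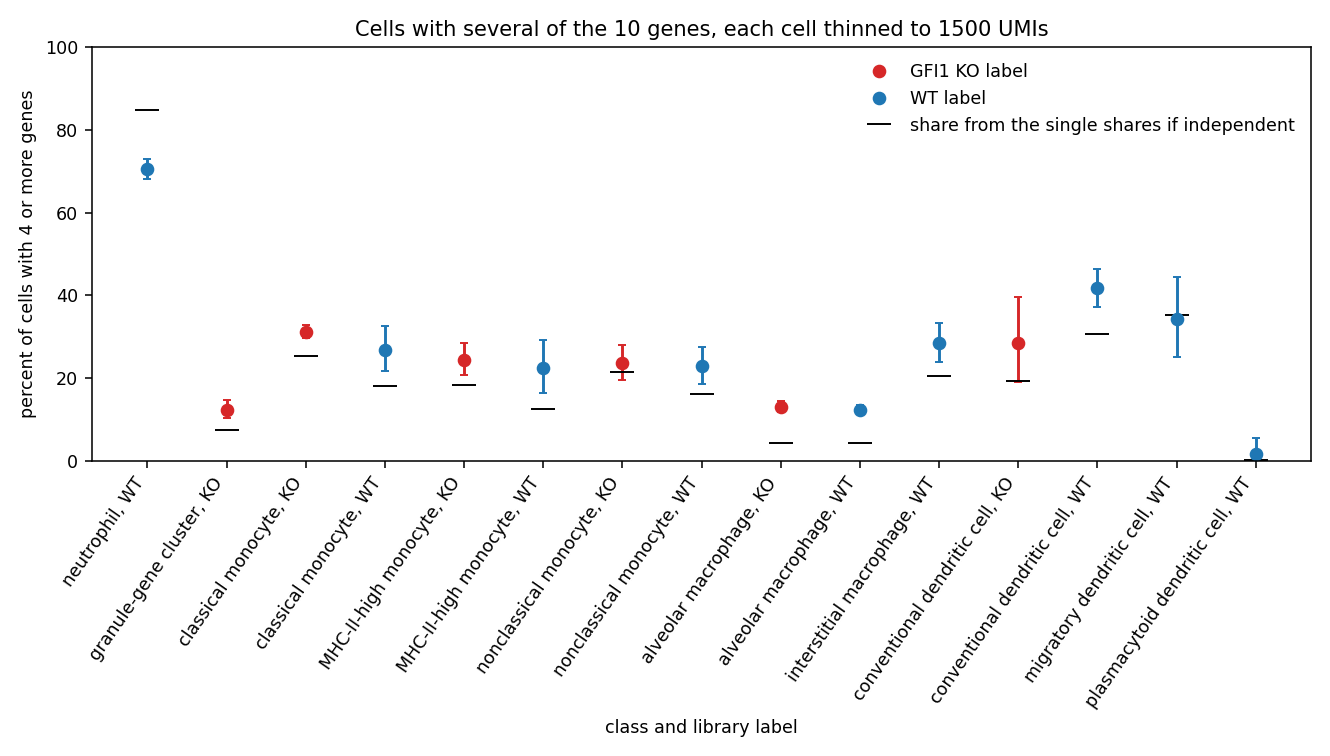
Share of cells (percent, thinned to 1500 UMIs, shallower cells left out) in which at least 4 of the 10 members had a UMI, per class in the libraries labelled GFI1 KO and WT, with exact 95% counting intervals as bars and the product of the single-gene shares as black ticks. Neutrophils labelled WT reached 70.7%, classical monocytes 31.1% and 26.9% and alveolar macrophages 13.04% and 12.3%.

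The antibody tags of the same cells were read beside these counts. The CD11b tag, an integrin of neutrophils and monocytes, had a median of 910 UMIs in classical monocytes labelled GFI1 KO with at least 4 members and 725 in those with at most 1, and 579.5 and 455 under the label WT. In MHC-II-high monocytes the medians were close, 584 and 579 under the label GFI1 KO and 398.5 and 369.5 under the label WT, and in nonclassical monocytes they were 505 and 349, and 407 and 258. The CD45 tag, common to leukocytes, also differed in classical monocytes, with 1055.5 and 935 UMIs under the label GFI1 KO and 679.5 and 612 under the label WT. In interstitial macrophages labelled WT, which may pool kinds of macrophage, the medians were 246 and 30 for CD11b and 234.5 and 1287 for CD11c. In conventional dendritic cells labelled WT they were 641 and 21 for CD11b. In both of these classes the median gene UMIs were close (10031 and 11361 in the interstitial macrophages, 11276.5 and 11125 in the dendritic cells). The dendritic cell groups mix clusters unevenly, since 116 of 192 cells of cluster 13 and 78 of 273 of cluster 11 had at least 4 members. The part of this in the CD11b medians was not tested. Alveolar macrophages had a CD11b median of 4 UMIs in each library.

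Other genes of the pathway were taken from lists of its parts and judged by the same 2-fold rule, so the shares of all genes that passed it stand again beside the counts. These were 8.03% higher and 4.89% lower in classical monocytes, 3.86% each way in MHC-II-high monocytes, 1.84% and 1.64% in nonclassical monocytes, 0.444% and 3.77% in alveolar macrophages and 1.84% and 6.58% in conventional dendritic cells. Against shares as low as these, a count of 0 in a short list is not read as a result. Among NF-κB subunits and feedback regulators, 0 of 15 passed it in either direction in any of the 5 classes, with median log2 ratios of -0.31 in classical, -0.23 in MHC-II-high and 0.06 in nonclassical monocytes, 0.00 in alveolar macrophages and -0.47 in conventional dendritic cells. Nfkb1, an NF-κB subunit, was 0.55 in MHC-II-high monocytes, and Rel, another, 0.73 in nonclassical monocytes. Tnip1 and Bcl3, regulators of NF-κB, were 1.30 and 1.47 in alveolar macrophages. Among receptors and processing enzymes none passed in monocytes or alveolar macrophages, and 1 of 14, the 4-1BB receptor Tnfrsf9 (3.24, from 28 and 55 UMIs), was higher in conventional dendritic cells.

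Inflammatory targets passed the rule in both directions. In classical monocytes 3 of 23 measured were at least 2-fold higher and 4 lower under the label GFI1 KO, in MHC-II-high monocytes 4 and 3 of 22, in nonclassical monocytes 2 and 2 of 21, in alveolar macrophages 0 and 3 of 23 and in conventional dendritic cells 1 and 7 of 24. The neutrophil chemoattractant Cxcl1 was 5.58 times higher in classical monocytes (3.02 to 11.7; 927 and 10 UMIs). Ier3, an early response gene, was 2.72, 4.90 and 2.59 times higher in classical, MHC-II-high and nonclassical monocytes, and Cd14, the lipopolysaccharide co-receptor, 1.54 and 2.12 times higher in the first 2 of these. Cd83, an activation marker, was lower in all 3 monocyte classes, with ratios of 0.26, 0.30 and 0.28. Cxcl10, an interferon-induced chemokine, was 0.19 and Il6, a cytokine, 0.21 in classical monocytes. Cluster 15, led by interferon-induced genes, held 77 of the 3408 classical monocytes labelled GFI1 KO and 45 of the 268 labelled WT. The part of this mix in the 2 ratios was not tested. In conventional dendritic cells Il6 (0.10; 8 and 488 UMIs) and Il12b (0.15; 8 and 350 UMIs) were lower, and in alveolar macrophages Il10 (0.30), the decoy receptor Il1r2 (0.32) and Ptgs2 (0.47) were lower. Il10 was 4.02 times higher in nonclassical monocytes. The edge of this class moved with the clustering, and no pathway gene was recomputed under the alternatives.

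Tissue digestion is known to induce early response and heat-shock genes, and a list of 12 was read beside the members. It summed to 6160 and 6899 CPM in classical monocytes, 5824 and 5923 CPM in MHC-II-high and 4624 and 4519 CPM in nonclassical monocytes, 3395 and 3643 CPM in alveolar macrophages and 13982 CPM in neutrophils labelled WT. In classical monocytes 0 of 12 were at least 2-fold higher and 2 lower under the label GFI1 KO, beside 8.03% and 4.89% of all genes. The median log2 ratio of the list there was -0.32, beside 0.06 over all genes measured. Fos was close in these cells, at 1509 and 1516 CPM, whereas Hspa1a, given below, was lower under the label GFI1 KO. The median was -0.11 in MHC-II-high and 0.10 in nonclassical monocytes, -0.04 in alveolar macrophages and 0.14 in conventional dendritic cells. The list was highest in the class with the most Il1b, and its part in the member levels was not tested.

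The members split by their profile over 16 combinations of class and library, which share libraries and depth and are therefore described without a test. Each member was compared with the mean of the other 9 on the log2(CPM + 1) scale. Nfkbia was most like the others with a Pearson correlation of 0.91, followed by Marcksl1 (0.83), Gadd45b (0.77), Nfkbiz (0.69), Il1b (0.59), Dusp2 (0.56), Cxcl2 (0.46) and Tnfsf9 (0.43). Tnf (0.21) and Il1a (0.13) were least like them. Those last 2 genes were like each other (0.86), and Dusp2 was like Marcksl1 (0.84) and unlike Il1a (-0.41). Among 10914 genes the most alike to the mean of the members were Jdp2 (0.87), Junb (0.86), Casp4 (0.85), Atf3 (0.84), Gpr84 (0.82), Nfkbid (0.81), Sbno2 (0.81), Dot1l (0.81), Birc3 (0.81) and Tgif1 (0.81).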

How the data were processed

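For each library the authors deposited an unnormalized matrix of raw UMI counts, with genes and antibody tags in rows, and the submitters' processing notes name Cell Ranger 9.0.1 and GRCm39. The methods state duplicates, and 1 library per genotype was analysed here. The members and lists were chosen with earlier results of these data known.

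The computation used Python 3.11.15 and scanpy 1.11.5. Cells were removed below 500 UMIs or 200 genes or with more than 20% mitochondrial UMIs. Left out as well were ribosomal, mitochondrial and Gm- genes (9548 genes, 19.0% and 16.5% of UMIs). Counts were scaled to 10000, 2000 variable genes without the members gave 50 principal components, and Leiden clustering (15 neighbours, resolution 0.8) was run over both libraries and again on 15 myeloid clusters of 38 (15696 cells). Doublets (3.30% and 5.92% called by Scrublet) were kept. Clusters were named from marker lists with thresholds (raised at least 1.5-fold and in at least 20% of cells, at least 3 markers) set after seeing the data. UMIs were summed per class and library, with exact Poisson, conditional binomial and Clopper-Pearson 95% intervals. Levels are compared within a gene only, since 3′ capture may differ between genes. Named pathway genes were the 3 highest and 3 lowest ratios per class by the interval bound nearer to 1. The ratio calculation was tested on simulated data.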

Additional observations from a re-analysis of the deposited data

Results flagged for a closer look

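Tnf and Cxcl2 had opposite directions in classical monocytes and alveolar macrophages. The ratio of the GFI1 KO label to the WT label was 0.73 for Tnf in classical monocytes and 1.16 in alveolar macrophages, and 2.25 for Cxcl2 in classical monocytes and 0.83 in alveolar macrophages. These were picked out because the counting intervals lay on opposite sides of 1 in the 2 classes. With 1 library per group the difference between the classes was not tested. In cluster 1 of the classical monocytes alone the interval of Tnf included 1 (0.82, 0.63 to 1.08), whereas Cxcl2 was 2.42 (2.28 to 2.58). The other monocyte classes and the interstitial macrophages were not part of this comparison. Interstitial macrophages had 4785 CPM of Cxcl2 under the label GFI1 KO (23 cells) and 1298 CPM under the label WT (397 cells).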

How the results depend on the processing

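No paired analysis was possible because each group holds 1 library. Of 501 values recomputed under alternatives, 314 moved by less than their counting interval or rule and 187 moved further. A change of direction was counted only for ratios that were at least 2-fold in the main run, and 0 of these changed. Smaller ratios did cross 1, and Cxcl2 in nonclassical monocytes kept its direction in 6 of 8 alternatives. Cxcl2 in classical monocytes ranged from 2.01 to 2.42 over 9 alternatives, Nfkbiz from 0.49 to 0.76 and Tnf from 0.49 to 0.82. Il1b in classical monocytes ranged from 0.89 to 1.30 and was below 1 when each library was clustered on its own. In alveolar macrophages Il1b ranged from 0.75 to 1.22, with 5 of 8 alternatives above 1. In nonclassical monocytes, whose boundary moved with the clustering, Cxcl2 ranged from 0.47 to 8.30 and Il1b from 0.83 to 2.41. In conventional dendritic cells Cxcl2 ranged from 0.53 to 2.41, Il1b from 0.90 to 1.67 and Tnf from 0.38 to 1.68. Tnfsf9 (0.40 to 0.72) and Nfkbiz (0.53 to 0.66) stayed below 1 there. MHC-II-high monocytes could be computed under only 3 alternatives, all of which kept the class assignment of the main run. Cxcl2 there ranged from 2.30 to 2.49, a range that cannot show how far the ratio depends on the clustering. When each library was clustered on its own, this class appeared only under the label GFI1 KO, at a size of 1026 against 482 in the main run. No ratio could therefore be taken there. Under the remaining alternatives neither library had a cell of this class, which was not among the classes of the single-cell marker scores.

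The number of members at least 2-fold higher or lower changed as follows. In nonclassical monocytes it became 0 higher and 2 lower at resolution 0.5, 0 higher and 1 lower at resolution 1.2, 0 higher with doublets left out, and 2 higher where members could enter the variable genes. With each library clustered on its own it was 3 lower in classical monocytes and 7 higher in nonclassical monocytes (1342 and 359 cells, against 401 and 371 above). There it was also 1 lower in alveolar macrophages, and 1 higher and 2 lower in conventional dendritic cells. With classes from single-cell marker scores it was 3 higher in classical monocytes, 2 higher and 1 lower in nonclassical monocytes and 2 lower in conventional dendritic cells. With the mean over cells it was 0 lower in MHC-II-high monocytes, 2 higher in nonclassical monocytes and 0 lower in conventional dendritic cells. In cluster 1 alone it was 2 higher, beside 7.13% of 10286 genes. For the other alternatives no share over all genes was computed, so nothing is read from these counts. The causes were not tested.

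The gap in the share of cells with Cxcl2 in MHC-II-high monocytes, 24.6 percentage points, was 17.2 points with cells thinned to 1000 UMIs, and that in alveolar macrophages, -5.04 points, was -8.09 points at 3000 UMIs. The share of cells with at least 4 members over the product of the shares, 1.23 and 1.48 in classical monocytes and 2.97 and 2.84 in alveolar macrophages, was 0.938, 0.906, 1.58 and 1.63 at 3000 UMIs. The excess of this share in classical monocytes thus depended on the depth, while all 44 and 30 of their pairs measured exceeded 1 at 3000 UMIs. Small classes, such as 9 neutrophils and 23 interstitial macrophages labelled GFI1 KO, limit what can be read from them.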

Other observations

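Levels of some other genes in classical monocytes were as follows, without a shared direction. Il1rn, the interleukin-1 receptor antagonist, was 29.0 CPM under the label GFI1 KO and 64.7 CPM under the label WT in these cells, and Saa3, an acute-phase gene, 833.0 and 8.73 CPM. Casp1, the protease that processes interleukin-1β, was 106.9 and 75.4 CPM, and Nlrp3, an inflammasome sensor, 348.1 and 407.0 CPM. Atf3 was 362.1 and 298.7 CPM, while Hspa1a, a heat-shock gene, was 49.2 and 157.1 CPM.

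Among B cells labelled WT, 28 held at least 4 members, and their median CD11b tag was 461.5 UMIs against 2 UMIs in the 2657 B cells with at most 1 member. The Ly6G tag had a median of 243 UMIs in neutrophils labelled WT and 1 UMI in the granule-gene cluster labelled GFI1 KO, whose CD11b median was 775.5 UMIs.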
